A study of Mus musculus with 8 samples.

Results

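The 121 genes described here were nearly silent in mouse inner medullary collecting duct cells and had higher levels after exposure to added NaCl. They were chosen from the deposited table of 15288 genes by their normalized counts, which are read counts divided by a scaling factor per library. A gene was taken when its mean over the controls was below 50, its mean with NaCl was at least 20 and at least 2 times the control mean, and its lowest NaCl library lay above its highest control library. Of the 3166 genes with a control mean below 50, 128 met these values. Genes with symbols starting with Slc, Gst, Cyp, Kcn, Col or Serpin, together with Fxyd2 and Prss35, were left out by name, which removed 7 genes.

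The cells were IMCD, a mouse line that stands for the epithelium of the last part of the collecting duct. Both groups were kept for 12 h in DMEM without serum, the control group as it was and the NaCl group with 100 mmol added NaCl, an amount the labels give without a volume. RNA was taken with Trizol and sequenced in bulk as 8 libraries, control replicates 1 to 4 and NaCl replicates 5 to 8. No genotype or added agent other than NaCl is named for either group, and nothing in the labels says that the replicates were separate cultures, so p-values measure only the spread between these libraries, which may be technical.

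Cells of the inner medulla live in a fluid far saltier than blood, and medium made hypertonic with NaCl is the usual model of that stress. The response best known in such cells is the build-up of compatible organic osmolytes, driven in large part by the factor NFAT5, which binds a DNA site called the tonicity-responsive enhancer (TonE). The genes described here are of other kinds: many are better known from other tissues, such as dermatopontin of connective tissue, the mast cell receptor chain Ms4a2 and the muscle protein Myom3, and a few belong to the kidney tubule itself.

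Total counts per library were between 35.29 and 47.57 M, with control replicate 1 the highest and NaCl replicate 5 the lowest. Markers of the labelled cell were uneven. In the control libraries Tfcp2l1, a transcription factor of the collecting duct, was at 130 ± 13.6 CPM (counts scaled to library size, SD, n = 4) and Gata3 at 8.10 ± 0.816 CPM (SD, n = 4). The water channels Aqp2 and Aqp3, which define principal cells, had at most 3 and 28 counts in any control library.

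"Switched on" was not literal for these genes. No member was at 0 counts in all controls, and 12 had at least 1 control library at 0. Control libraries detected 115 to 119 of the 121 members, and each NaCl library detected all 121. The median member went from a mean of 13.5 to 43.7 normalized counts. The highest, Dnase1, reached 220.81, which is above 30.6% of the genes in the table, and no member reached the median gene, 1031.1, on this scale, which takes no account of gene length. Fold changes, as ratios of mean CPM, were between 2.01 and 41.2 with a median of 2.96. They were at least 4 in 40 members and at least 10 in 9, and 61 members were below 3. For 3 members (Plb1, 4930511M06Rik and Fabp7) every control library had at most 3 counts, and their folds were computed against 3 counts per library and are lower bounds, which these counts and the range take as they stand. Such floors cover counting error only.

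The same contrast chose the members, so their values are a description and carry no test. After a filter on low counts, 119 members entered the edgeR quasi-likelihood fit and 118 of these were called higher at an adjusted p under 0.05. Over all 14024 genes tested, 16.9% were called higher and 17.2% lower, and 2.04% were called higher and at least 2-fold. Among tested genes with a control mean below 50, 12.1% were called higher. The lowest NaCl library lay above the highest control in 15.2% of all genes and in 8.97% of genes with a control mean below 50, and 4.04% of those low genes met all values of the rule. Cacna1c and Rimbp3 had too few counts to be tested and Gm13523 was tested and not called. The mirrored rule, with control and NaCl exchanged, was met by 67 genes, or 62 with the same names left out.

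The thresholds cut through a continuous range. Plekhs1 was just inside the control limit at 47.15 and Fsd1 just outside at 52.94. Rimbp3 was just inside the NaCl limit at 20.07 and Gm17344 just outside at 19.94. For 1810062O18Rik the ratio of the means was 2.01, and for Gm15927, which was left out, it was 1.99. In Gm14377 the lowest NaCl library was 1.001 times the highest control.

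**Figure D1:**
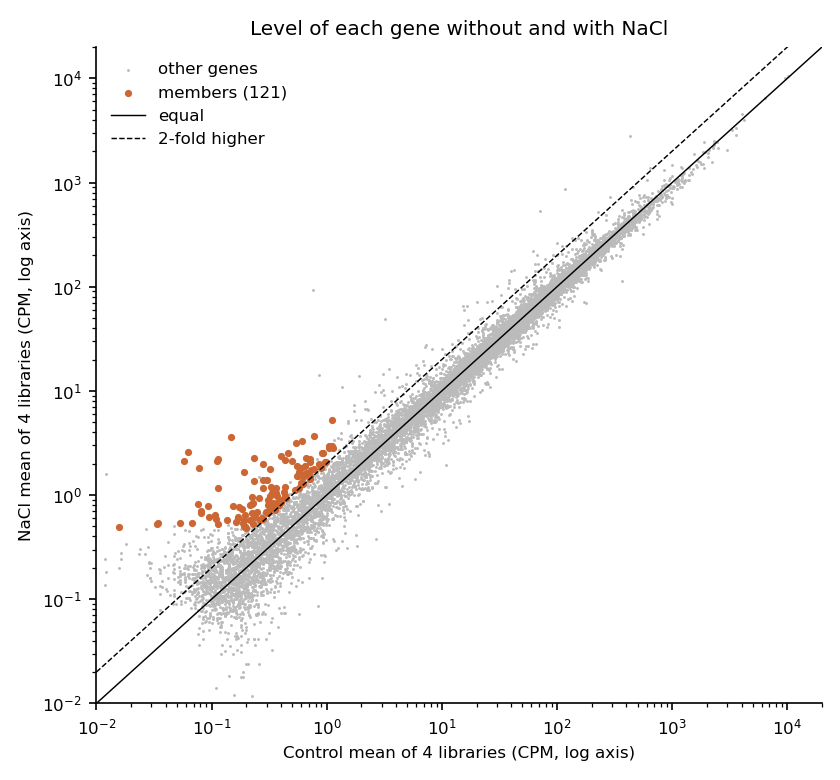
Mean level of each gene in the 4 control libraries (horizontal, CPM, log axis) and the 4 NaCl libraries (vertical, CPM, log axis), with the 121 members in orange, all other genes in grey, and lines for equal and 2-fold higher levels. The members occupy the low corner, with NaCl means between 0.48 and 5.31 CPM and control means of at most 1.13 CPM.

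Promoters were read from RefSeq (GRCm38.p6) as the 250 bases before each start site and 50 after it, and 80 members matched by symbol with 118 promoters. The 3 printed here belong to members with high fold changes or levels and hold a match to TonE, shown in capitals. Each line gives the 250 bases before the start, 5′ to 3′ on the strand of the gene. The Dpt sequence is chr1:164796413-164796662 on the plus strand, with its match at -72 to -62 from the start. The 1700016C15Rik sequence is chr1:177729564-177729813 on the plus strand, with the match at -37 to -27 on the opposite strand. The Sec1 sequence is chr7:45694403-45694652 on the minus strand, with the match at -210 to -200.
Dpt: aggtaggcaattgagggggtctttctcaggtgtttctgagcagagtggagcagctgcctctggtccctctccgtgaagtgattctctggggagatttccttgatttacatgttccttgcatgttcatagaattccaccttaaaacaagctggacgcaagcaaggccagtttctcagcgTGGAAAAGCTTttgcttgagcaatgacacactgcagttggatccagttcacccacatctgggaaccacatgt
1700016C15Rik: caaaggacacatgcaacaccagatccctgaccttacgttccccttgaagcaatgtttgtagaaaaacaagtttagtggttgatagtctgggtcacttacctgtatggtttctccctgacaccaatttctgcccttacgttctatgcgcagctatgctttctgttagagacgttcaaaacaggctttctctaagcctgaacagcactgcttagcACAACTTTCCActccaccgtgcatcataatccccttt
Sec1: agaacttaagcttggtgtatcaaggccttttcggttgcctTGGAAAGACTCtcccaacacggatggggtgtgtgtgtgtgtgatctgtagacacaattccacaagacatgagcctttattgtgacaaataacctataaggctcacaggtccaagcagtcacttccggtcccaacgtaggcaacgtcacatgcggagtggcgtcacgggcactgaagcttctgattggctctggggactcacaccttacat

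A TonE match was found on either strand in 10 of the 118 member promoters (8.5%), which belong to 9 genes: 1700016C15Rik, 4930512B01Rik, Dlgap1, Dpt, Gm15471, Gucy2g, Neu2, Sec1 and Vmn2r1. The share was 5.0% of all 32851 promoters of 300 bases and 5.7% of those of the other low genes. The NF-kB site, bound by a factor of inflammatory signalling, matched in 18.6% of member promoters against 8.5% of all and 11.3% of the other low genes. AP-1 (TGANTCA) matched in 5.1% against 7.8% and 8.6%, CRE (TGACGTCA) in 0.8% against 1.8% and 2.2%, TATAAA in 17.8% against 13.6% and 12.1%, and GGGCGG in 32.2% against 35.7% and 41.9%. Counted per gene, GGGCGG matched in 38.8% of the 80 member genes against 38.2% of all genes and 46.9% of the other low genes. No TonE match overlapped a match to another of these motifs. These are matches of letters in a window, counted without a test.

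A channel subunit of the kidney tubule was among the members with clear gaps between the groups. Bsnd encodes barttin, a subunit that chloride channels of the tubule need to reach the membrane. The gene lies at chr4:106483456-106492283 (minus strand, GRCm38, GENCODE M21). It had 28, 13, 27 and 26 counts in the control libraries and 106, 151, 127 and 123 with NaCl, or 0.541 ± 0.157 CPM against 3.13 ± 0.298 CPM (SD, n = 4), a 5.80-fold difference. All 4 NaCl libraries lay far above the highest control. In bulk RNA, a larger number of cells that carry a transcript and more of it per cell cannot be told apart.

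Other channels and transporters came from elsewhere in the body. Clca2, a regulator of chloride conductance known from stratified epithelia, had 7, 4, 9 and 0 counts in the controls and 87, 90, 106 and 70 with NaCl, or 0.115 ± 0.0915 CPM against 2.20 ± 0.399 CPM (SD, n = 4), a 19.2-fold difference. Its relative Clca3a2 had 21, 7, 18 and 24 counts against 28, 42, 35 and 34, a 2.13-fold difference, and 65.6% of its transcript sequence is shared with other genes, among them Clca3a1, so its counts are uncertain. Of the 3 Clca genes that were not members, Clca3b rose (log2 difference 0.46, edgeR adjusted p = 0.0244), and Clca3a1 had a log2 difference of 0.50 that did not pass the test (adjusted p = 0.511). The skeletal muscle sodium channel Scn4a (7.96-fold), the irritant-sensing cation channel Trpa1 (4.19-fold) and the L-type calcium channel subunit Cacna1c (4.61-fold) reached NaCl means of 0.542, 1.18 and 0.527 CPM. Abcc6, an efflux transporter of liver, had 11, 3, 23 and 3 control counts and 36, 64, 80 and 44 with NaCl. Its fold was 5.93 with all libraries and 11.1 without control replicate 3. No other library left out moved this fold by over 1.5 times. The 9 channel and transporter genes together had a median fold of 5.80.

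Receptors and signalling proteins formed the largest coding class, with 18 members and a median fold of 3.18. Ms4a2, the beta chain of the high-affinity IgE receptor of mast cells (chr19:11615523-11623719, minus strand), had 3, 4, 0 and 3 counts in the controls and 102, 72, 75 and 91 with NaCl, or 0.0572 ± 0.0405 CPM against 2.13 ± 0.514 CPM (SD, n = 4), a 37.3-fold difference. No control library had more than 4 counts and no NaCl library fewer than 72. The gamma chain of that receptor, Fcer1g, is also used by other Fc receptors and was not a member. It rose from 0.227 ± 0.135 to 0.547 ± 0.175 CPM (SD, n = 4; log2 difference 1.26, edgeR adjusted p = 0.0429). Fcer1a, the alpha chain that binds IgE, was not analysed here. Npy4r, a receptor for pancreatic polypeptide, had 8, 1, 0 and 5 counts against 80, 70, 55 and 88, a 23.6-fold difference. Over the scalings and libraries left out this fold ranged between 17.7 and 38.7, the highest without control replicate 1.

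Several receptors stayed at very low levels even with NaCl. The oxytocin receptor Oxtr had 0, 3, 2 and 4 counts in the controls and 29, 14, 20 and 23 with NaCl (10.2-fold). Gucy2g, a receptor-type guanylate cyclase known from sensory neurons of the mouse nose, had 2, 6, 5 and 0 against 39, 28, 36 and 28 (10.8-fold). Both had NaCl means below 1 CPM, and the lack of overlap between their groups is fixed by the rule. Cd93, a receptor of endothelium and myeloid cells, had 4, 0, 8 and 2 counts against 18, 29, 36 and 27, an 8.33-fold difference that was 15.5-fold without control replicate 3. No other library left out moved the Cd93 fold by over 1.5 times.

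Avpr2, the vasopressin receptor that lets principal cells insert water channels, had 0, 6, 11 and 1 counts in the controls and 16, 16, 48 and 25 with NaCl. Its mean was 0.108 ± 0.122 CPM in the controls and 0.646 ± 0.357 CPM with NaCl (SD, n = 4), a 5.99-fold difference. Over the scalings and libraries left out this fold ranged between 4.39 and 11.7, the highest without control replicate 3. NaCl replicate 7 held the highest value and control replicate 3 came close to the lowest NaCl libraries. Exons of Arhgap4 on the opposite strand cover 81.3% of the exonic sequence of Avpr2, and the strandedness of the counting is not given in the sources used here, so reads of the 2 genes cannot be told apart. Arhgap4 was not analysed here. Aqp2, the channel that this receptor controls, had 0, 1, 3 and 0 counts in the controls and 12, 8, 15 and 14 with NaCl. These groups did not overlap, but the NaCl mean of Aqp2 was below the limit of the rule and its counts were too few to test.

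Further receptors and signalling proteins were members. The ephrin receptor Epha7 had 62, 27, 40 and 55 counts against 128, 107, 95 and 145 (2.82-fold), and the adhesion receptor Adgrl3 had 42, 50, 31 and 36 against 114, 90, 111 and 94 (2.79-fold). In both genes the lowest NaCl library lay above the highest control, as the rule requires of every member. Gna14, a G protein alpha subunit of the Gq class, had 11, 16, 16 and 12 counts against 63, 72, 90 and 61 (5.54-fold). Its relatives Gnaq and Gna11 had log2 differences of -0.02 and -0.03 and did not pass the edgeR test (adjusted p = 0.667 and 0.576). The neurotrophin receptor Ntrk3 (3.64-fold), the adaptor Grap of lymphocytes (3.25-fold) and the brain phosphatase Ptpn5 (2.61-fold) reached 1.20, 1.18 and 0.801 CPM with NaCl.

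**Figure D2:**
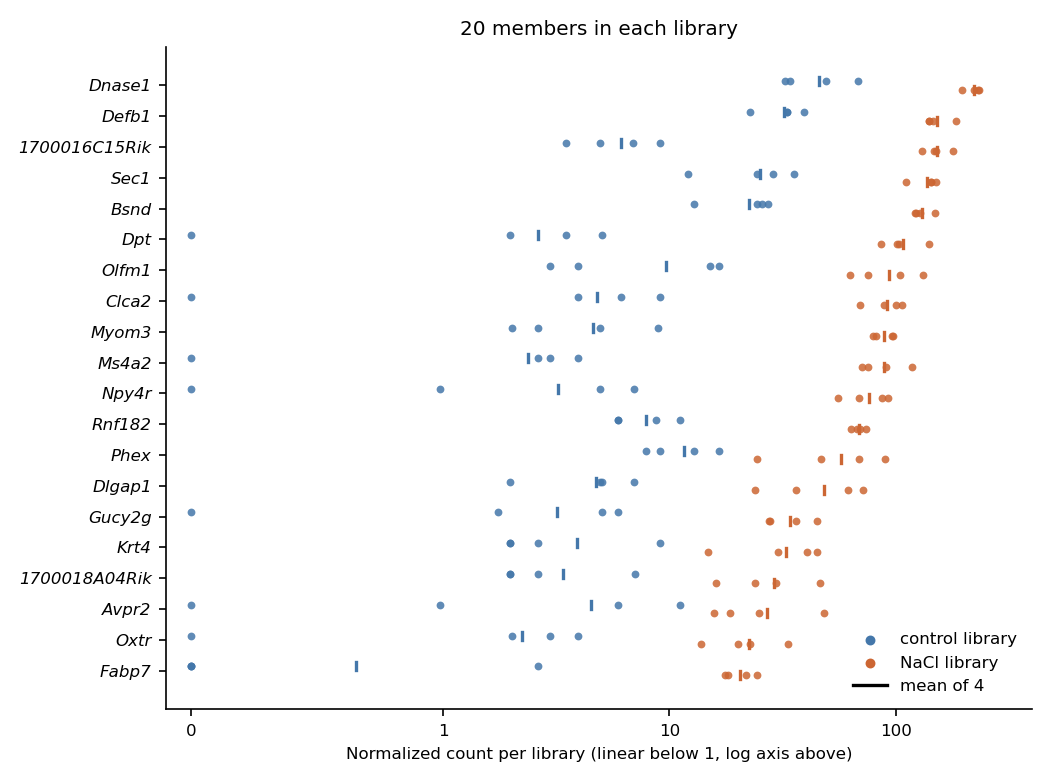
Normalized counts of 20 members in each of the 8 libraries (horizontal, linear below 1 and logarithmic above), with control libraries in blue, NaCl libraries in orange and a tick for each mean of 4. The NaCl libraries lie to the right of all control libraries for each gene, as the rule requires; the gap is wide for Dpt, Ms4a2 and 1700016C15Rik and narrow for Phex and Avpr2.

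Secreted and matrix proteins included both the member with the highest normalized count and the one with the highest fold among those not given as lower bounds. Dnase1, a secreted enzyme that degrades DNA and is made in kidney (chr16:4036942-4040024, plus strand), had 78, 50, 34 and 33 counts in the controls and 170, 235, 231 and 224 with NaCl, or 1.11 ± 0.397 CPM against 5.31 ± 0.394 CPM (SD, n = 4), a 4.80-fold difference. Control replicate 1 was the highest control and NaCl replicate 5 the lowest NaCl library, and both lay well apart. The annotated gene Gm15879 shares 53.6% of the transcript sequence of Dnase1, so its counts are uncertain. Defb1, an antimicrobial beta-defensin of kidney and airway epithelium, had 38, 23, 33 and 40 counts against 121, 149, 139 and 186 (4.76-fold), with NaCl replicate 8 above the other NaCl libraries. Dpt, dermatopontin of the connective tissue matrix (chr1:164796644-164824266, plus strand), had 4, 2, 5 and 0 counts against 121, 103, 103 and 87. That is 0.0630 ± 0.0516 CPM against 2.60 ± 0.553 CPM (SD, n = 4), a 41.2-fold difference, with no control library above 5 counts.

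Further secreted members are known from distant tissues. Olfm1, a glycoprotein of neurons, had 19, 3, 15 and 4 counts against 114, 64, 104 and 76 (9.74-fold). Tg, the thyroid hormone precursor thyroglobulin, had 17, 21, 12 and 25 counts against 59, 144, 83 and 67 (4.99-fold). NaCl replicate 6 held the highest value of Tg. Smoc2, a matrix protein that binds calcium, was 4.57-fold higher at 1.40 CPM, and the cytokine Lta was 3.41-fold higher at 1.90 CPM. Ltb, its partner cytokine and neighbour, had a log2 difference of 0.40 that did not pass the edgeR test (adjusted p = 0.68). The protease inhibitors Spink2 of sperm (4.45-fold) and Spink10 (2.06-fold), the oocyte growth factor Bmp15 (3.35-fold), the synaptic pentraxin Nptx1 (3.63-fold) and the Wnt inhibitor Wif1 (2.34-fold) had NaCl means between 0.546 and 1.63 CPM. The 16 members of this class had a median fold of 3.52.

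Surface proteins showed smaller differences, with a median fold of 2.69 over 9 members. Phex, the endopeptidase of bone cells whose loss causes phosphate wasting, had 19, 13, 9 and 8 counts in the controls and 21, 70, 89 and 47 with NaCl (4.96-fold). NaCl replicate 5, the library with the fewest reads, stood near the highest control in raw counts. Upk3b, a uroplakin of urothelium and mesothelium, had 22, 65, 20 and 53 counts against 67, 111, 140 and 98 (2.73-fold), with control replicates 2 and 4 far above replicates 1 and 3. The aminopeptidase Lvrn (3.44-fold), the adhesion protein Tmigd1 of kidney tubule and gut (3.11-fold) and the intestinal cadherin Cdh17 (2.45-fold) reached 2.26, 1.04 and 0.792 CPM.

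Among 15 intracellular enzymes the median fold was 3.01. Sec1, a fucosyltransferase of the family that makes secreted blood group sugars, had 28, 36, 12 and 29 counts against 124, 145, 150 and 112 (5.46-fold). The ubiquitin ligase Rnf182 was 8.69-fold higher, from 0.190 ± 0.0598 to 1.65 ± 0.100 CPM (SD, n = 4). Gldc, the decarboxylase that starts glycine cleavage, had 7, 2, 1 and 7 counts against 23, 25, 26 and 25 (6.41-fold). The other proteins of that complex did not follow: Amt and Dld did not pass the edgeR test (log2 differences 0.14 and -0.02, adjusted p = 0.337 and 0.671) and Gcsh fell by 0.17 on the log2 scale (adjusted p = 0.0294).

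Oas1e, of the interferon-inducible 2-5A synthetase family, stood against its relatives. It had 35, 17, 10 and 26 counts in the controls and 84, 81, 77 and 102 with NaCl, a 4.29-fold difference, and shares no stretch of transcript with them at the identity searched. Of the 6 other Oas genes tested, 5 fell in the edgeR fit. Oas3 fell from 84.0 ± 4.57 to 44.1 ± 3.11 CPM (SD, n = 4; log2 difference -0.93, adjusted p = 1.26e-09) and Oas2 from 130 ± 14.2 to 78.0 ± 6.34 CPM (log2 difference -0.74, adjusted p = 7.2e-05). Oas1c, the other gene, had a log2 difference of -0.20 that did not pass (adjusted p = 0.0722). The relatives Oasl1 and Oasl2 also fell (log2 differences -0.24 and -0.58, adjusted p = 0.028 and 0.000892).

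The cytoskeletal, scaffold and lipid-binding proteins were 5 members, 1 of them with a fold known only as a lower bound. Myom3, a protein of the muscle M-band, had 3, 9, 2 and 5 counts against 71, 81, 95 and 98, a 19.3-fold difference with a wide gap. Its relative Myom1 had a log2 difference of 0.03 (edgeR adjusted p = 0.951). Dlgap1, a scaffold of neuronal synapses, had 8, 2, 5 and 5 counts against 53, 73, 36 and 24 (10.2-fold), and the epithelial keratin Krt4 had 3, 2, 9 and 2 against 39, 15, 30 and 41, an 8.39-fold difference that was at least 11.5-fold without control replicate 3. No other library left out moved the Krt4 fold by over 1.5 times. Krt13, the keratin that pairs with Krt4, had a log2 difference of -0.35 that did not pass the test (adjusted p = 0.3). Fabp7, a fatty acid carrier of glia, had 3, 0, 0 and 0 control counts and 21, 18, 18 and 22 with NaCl, at least 7.11-fold higher.

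The regulators of transcription were Aff3 (5.54-fold), Cux2 (3.65-fold), Lhx9 (2.64-fold) and Foxa3 (2.45-fold), with the histone gene H2ac6 (2.36-fold). Aff3 had 24, 15, 5 and 36 counts against 111, 112, 78 and 105. Foxa1, a relative of Foxa3, fell by 0.29 on the log2 scale (edgeR adjusted p = 0.000428). Genes of meiosis, sperm and cilia had the lowest median fold of any class, 2.22 over 6 members, between 2.09 for Cage1 and 2.70 for Brme1. Brme1, a meiotic recombination factor, had 53, 47, 40 and 42 counts against 82, 89, 137 and 151. Among the uncharacterised members, 1700016C15Rik (chr1:177729814-177753324, plus strand) had 4, 7, 9 and 5 counts in the controls and 127, 182, 149 and 131 with NaCl, or 0.146 ± 0.0581 CPM against 3.64 ± 0.490 CPM (SD, n = 4), a 24.9-fold difference. Per kilobase of exon it had the highest NaCl level of any member, 4.75 CPM per kb, followed by Defb1 at 4.21 CPM per kb.

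Long noncoding RNAs made up 28 of the 121 members (23.1%), 12 of them antisense and 12 intergenic. The share was 41.1% in the other low genes and 11.6% in the whole table. Their median fold was 2.84. 1700018A04Rik was 8.52-fold higher, with 3, 2, 7 and 2 counts in the controls and 40, 30, 16 and 24 with NaCl. Over the scalings and libraries left out its fold ranged from 6.81 to at least 10.2, the last without control replicate 3. The antisense RNA 4930511M06Rik, with 3, 0, 0 and 3 counts against 17, 24, 33 and 11, was at least 7.58-fold higher, so the order of these 2 folds is not known. 1700018A04Rik starts 24 bp from Foxf2 and runs the other way, at chr13:31565492-31625792 (GRCm38). Foxf2, a forkhead factor of mesenchyme, rose from 2.85 ± 0.693 to 11.3 ± 1.35 CPM (SD, n = 4; log2 difference 1.98, edgeR adjusted p = 6.44e-08), and Foxq1, 4516 bp beyond the far end of the RNA, rose by 1.33 (adjusted p = 2.78e-08). A530084C06Rik, which overlaps Foxq1 on the opposite strand, rose by 1.23 on the log2 scale (adjusted p = 4.74e-05). It lies wholly within the span of Foxq1, so without stated strandedness the reads of these 2 genes cannot be told apart. Foxc1, a further gene of this cluster, had a log2 difference of 0.04 (adjusted p = 0.52).

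Other noncoding members also lay beside genes that rose. 4930512B01Rik (3.05-fold) starts within Cdkl1 on the opposite strand, and Cdkl1, a protein kinase, rose from 67.9 ± 4.97 to 142 ± 4.87 CPM (SD, n = 4; log2 difference 1.07, edgeR adjusted p = 8.27e-11). Exons of Cdkl1 and Map4k5 cover 9.1% and 3.0% of the exonic sequence of 4930512B01Rik. Without stated strandedness, reads in those parts cannot be told apart. Gm5602 (2.52-fold) starts within Plekha1 on the opposite strand without exon overlap, and Plekha1 rose by 1.01 (adjusted p = 3.32e-12). Platr22 (2.03-fold) lies 5407 bp from Gm19705, which rose by 1.56 (adjusted p = 3.22e-07). Gm15471 (4.30-fold) lies wholly over exons of Dclre1b on the opposite strand, and Dclre1b rose by 0.82 (adjusted p = 2.1e-07), so without stated strandedness their reads cannot be told apart. Sla, a gene nested in Tg on the opposite strand, rose by 2.45 (adjusted p = 0.00597) at 0.326 CPM. By contrast Dhx58os was 5.15-fold higher while Dhx58, the gene it lies against, fell by 0.46 (adjusted p = 0.00479). Taco1os was 3.6-fold higher while Taco1 had a log2 difference of -0.01 (adjusted p = 0.964).

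Of the 121 members, 75 had a gene of the table that was not a member within 10 kb. Of 109 such neighbours tested, 37 rose (33.9%) and 13 fell (11.9%), and 7 (6.42%) rose at least 2-fold, beside 16.9%, 17.2% and 2.04% over all genes. Neighbours were described with no test of these shares, and 39 members overlap an exon of another gene, 37 of them on the opposite strand. At least 50% of the exonic sequence was overlapped in 3 members (Avpr2, Gm15471 and D930007J09Rik). At least 50% of a transcript was shared with another gene in 10 members, and 79 shared nothing.

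**Figure D3:**
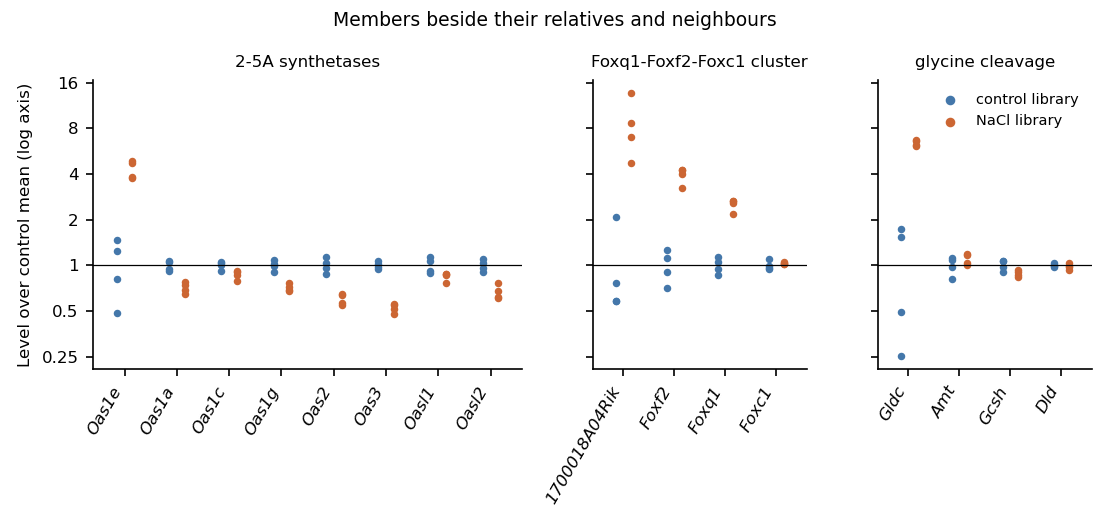
Level of each gene in each library divided by its mean over the 4 controls (vertical, log axis), for Oas1e and its relatives (without Oas1d, which has NaCl libraries at 0), 1700018A04Rik and its neighbours, and Gldc and the rest of its complex, with control libraries in blue and NaCl libraries in orange. Oas1e stands above 1 where its relatives stand below, Foxf2 and Foxq1 stand above 1 with 1700018A04Rik while Foxc1 stays near it, and Gldc stands above the rest of its complex.

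Relatives by name rose and fell in like numbers. A root is the letters before the first digit, so it can pool unrelated genes, such as Sec1 with 25 tested Sec genes. The members carry 71 symbol roots, and 432 other genes with those roots were tested, of which 78 rose (18.1%) and 77 fell (17.8%), near the 16.9% and 17.2% of all genes. The median log2 difference of these 432 genes was -0.005.

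Members were grouped by the tissue or cell type in which each is usually found, an assignment made from general knowledge with the values in view. Neither these groups nor the classes above were assigned for other low genes, so their counts have no background share. Nervous system genes were the largest such group, with 13 members that summed to 5.71 ± 1.0 CPM in the controls and 19.1 ± 0.628 CPM with NaCl (SD, n = 4). The 6 kidney tubule genes, among them Dnase1, Defb1, Bsnd, Tmigd1 and Avpr2, summed to 3.14 ± 0.352 and 15.8 ± 0.826 CPM, with a median fold of 5.30. Germ cells gave 8 members, blood and immune cells 5, and muscle, connective tissue and bone, stratified epithelium and urothelium, and the group of thyroid, liver and gut 4 each. Sensory cells gave 3 members and uterus and breast 1. For 41 coding members no usual site was assigned. In each of these groups every NaCl sum lay above every control sum, which the choice of members fixes.

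**Figure D4:**
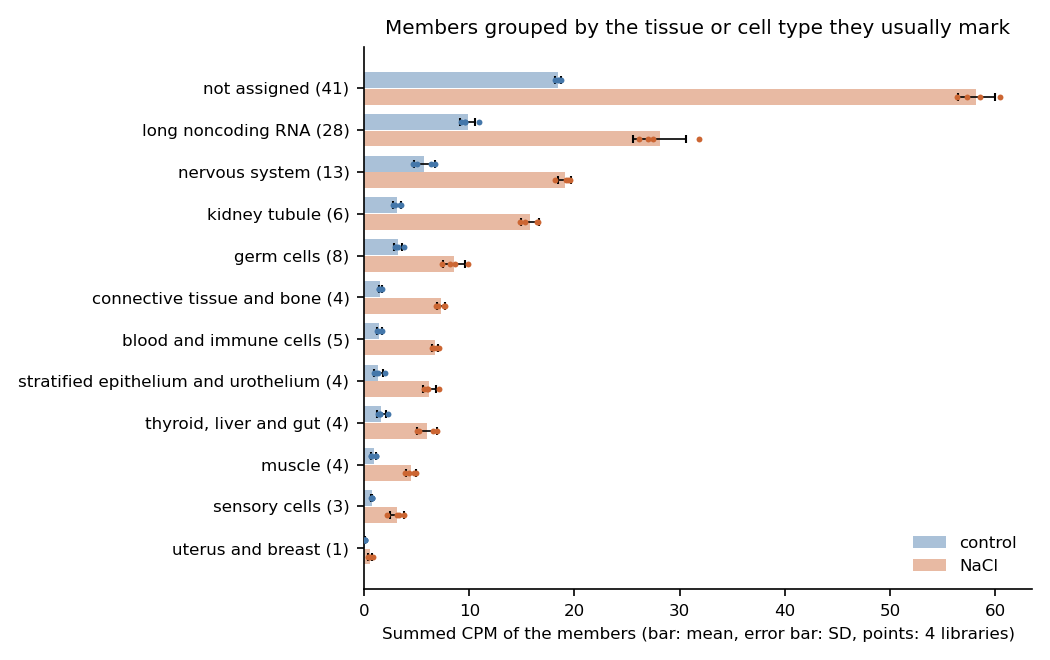
Summed CPM of the members by the tissue or cell type they usually mark (horizontal; number of members in brackets), with bars for the mean of 4 libraries, error bars for the SD and points for the libraries. The 41 members without an assigned site and the 28 long noncoding RNAs hold the largest sums, and the nervous system genes reach 19.1 CPM with NaCl.

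Marker genes of those cell types both rose and fell. Of 252 marker genes on 26 cell type lists, 108 were in the table and 84 were tested in the edgeR fit. Of these 17 rose and 21 fell, and 5 of the 17 were members, chosen because they were higher. Of the 79 tested markers that were not members 12 rose (15.2%) and 21 fell (26.6%), beside 16.9% and 17.2% of all genes tested. For neurons, 5 of 14 markers were in the table and 4 were tested. Map2 fell (log2 difference -0.18, adjusted p = 0.0449), and Tubb3, Slc17a7 and Syp did not pass. The summed level of the neuron list was 103 to 127 CPM in the controls and 99.1 to 112 CPM with NaCl, most of it from Tubb3. Of 9 germ cell markers only Sycp3 was in the table, with at most 6 counts in a control library and 11 with NaCl. Of 13 striated muscle markers 2 were tested, and Tnnt2 fell (log2 difference -0.76, adjusted p = 0.00195) while Tnni2 did not pass (log2 difference 0.08, adjusted p = 0.831). On the smooth muscle and pericyte list 3 of 8 tested markers rose, Acta2, Pdgfrb and Smtn (log2 differences 0.28, 0.70 and 0.47, adjusted p = 0.000237, 1.08e-06 and 0.000287), and Des and Cspg4 fell (log2 differences -1.42 and -0.62, adjusted p = 1.99e-05 and 0.00387). On the erythroid and megakaryocyte list Ppbp rose (log2 difference 1.41, adjusted p = 1.12e-08) and Itga2b fell (log2 difference -0.54, adjusted p = 0.0228). Of the tested airway, alveolar and ciliated cell markers, Foxj1 and Rsph1 fell (log2 differences -0.44 and -0.76, adjusted p = 0.00555 and 0.0044). Ccdc39 of that list did not pass (log2 difference 0.17, adjusted p = 0.467).

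For fibroblasts, the list that holds Dpt, 2 of the 6 other tested markers fell, and Col1a2, Dcn, Fbln1 and Postn did not pass the test. Col1a1, the main collagen of fibroblasts, was already at 2492 ± 160 CPM in the controls and fell to 2148 ± 153 CPM (SD, n = 4; log2 difference -0.21, edgeR adjusted p = 0.00808), and Pdgfra fell by 0.67 (adjusted p = 0.0332). The summed list stood at 2753 to 3185 CPM in the controls and 2383 to 2798 CPM with NaCl. Among myeloid markers, in the company of Ms4a2, the leukocyte phosphatase Ptprc rose from 4.05 ± 0.346 to 13.5 ± 0.434 CPM (SD, n = 4; log2 difference 1.73, adjusted p = 5.91e-10) and Fcer1g rose, while Csf1r, Cd68 and Cd14 did not pass the test. The summed myeloid list was 68.3 to 84.8 CPM in the controls and 82.2 to 94.3 CPM with NaCl. For T and NK cells and B cells the tested markers, Lck and Blk, both fell (log2 differences -0.48 and -1.50, adjusted p = 0.00772 and 0.0141). Whether cells other than IMCD contributed to the members' counts was not tested.

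Lists of kidney segments held genes that rose and genes that fell. The water channel Aqp1 on the proximal tubule list rose from 118 ± 5.26 to 858 ± 15.9 CPM (SD, n = 4; log2 difference 2.86, edgeR adjusted p = 3.61e-18), while Lrp2 and Cubn of that list did not pass (log2 differences -0.19 and 0.18, adjusted p = 0.072 and 0.484). Atp6v0d2, a proton pump subunit and the tested marker of intercalated cells, fell from 1.84 ± 0.320 to 0.326 ± 0.112 CPM (SD, n = 4; log2 difference -2.48, adjusted p = 7.08e-06). Of 4 tested podocyte markers Podxl and Synpo fell (log2 differences -0.33 and -0.45, adjusted p = 0.00643 and 3.34e-05). Of 8 tested markers of principal cells, the urea transporter Slc14a2 rose (log2 difference 1.13, edgeR adjusted p = 0.000102) beside the member Avpr2. The sodium channel subunit Scnn1g and the factors Gata3 and Tfcp2l1 fell (log2 differences -0.84, -0.44 and -0.38, adjusted p = 0.000374, 0.00341 and 0.000347). Of 9 tested markers of the loop of Henle and distal tubule, Cldn19 and Kcnj1 rose (log2 differences 0.36 and 1.09, adjusted p = 0.00016 and 5.32e-06) and Cldn10 fell (log2 difference -0.48, adjusted p = 0.0011), while Umod, which defines the thick limb, did not pass (log2 difference 0.29, adjusted p = 0.475). On the urothelium list Psca rose beside the member Upk3b (log2 difference 0.95, adjusted p = 0.00334). On the keratinocyte list Sprr1a, of the cornified envelope, fell from 44.3 ± 12.5 to 19.5 ± 6.16 CPM (SD, n = 4; log2 difference -1.18, adjusted p = 0.0287), and the other 3 tested markers, Krt10, Tgm1 and Trp63, did not pass. The summed keratinocyte list was 35.4 to 61.7 CPM in the controls and 14.4 to 28.6 CPM with NaCl. On the bone list Alpl rose beside Phex (log2 difference 1.19, adjusted p = 6.18e-05), and Runx2 and Spp1 did not pass (log2 differences -0.20 and 0.06, adjusted p = 0.0996 and 0.541).

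**Figure D5:**
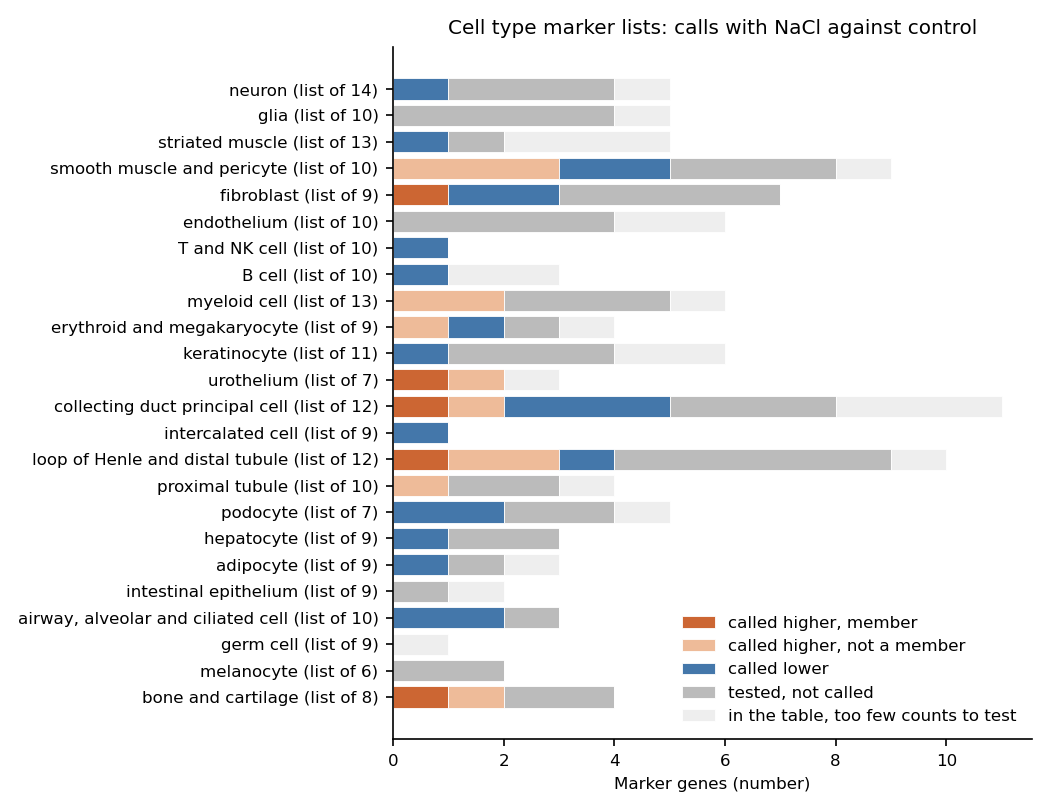
Number of marker genes of each cell type list (horizontal) that were members, rose without being members, fell, were tested and not called, or had too few counts to test in the edgeR comparison of NaCl with control. The 5 members among the markers stand on 5 different lists, and the principal cell list holds 3 markers that fell.

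The summed level of the members was 49.3, 48.4, 47.6 and 46.9 CPM in control replicates 1 to 4 and 167, 162, 168 and 159 CPM in NaCl replicates 5 to 8, means of 48.1 ± 1.01 and 164 ± 4.19 CPM (SD, n = 4) and a ratio of 3.41. The groups of sums did not overlap, which the choice of members fixes. The 10 members with the highest CPM held 20.3% of the NaCl sum. For single members the coefficient of variation over the NaCl libraries had a median of 22.7% and a maximum of 63.5%, in Gm15471, whose NaCl counts were 66, 38, 25 and 21. In the NaCl group replicates 5 and 7 held the highest value of 35 members each and replicate 8 that of 22.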

How the data were processed

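Bulk RNA from 4 control and 4 NaCl libraries was analysed, with groups taken from the treatment label. Per the submitters' processing notes, Trim Galore 0.6.7, STAR, DESeq2 1.34.0 and the build mm10 were used, with no role or order stated. The counting program, the annotation and the strandedness are not given in the sources used here. The authors deposited raw counts per gene, whole numbers with a total of at least 19 per gene. The deposited normalized table holds a signal equal to the count divided by a factor per library between 0.864 and 1.145. The symbols of 91 genes differed between the tables, none of them members.

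Members were chosen from the normalized table, and folds were computed from CPM with TMM-scaled totals in edgeR 4.0.16 (R 4.3.3). Genes were filtered with filterByExpr at a minimum count of 10, and edgeR's robust quasi-likelihood F test with Benjamini-Hochberg adjustment over all 14024 genes tested gave calls at 0.05. On simulated counts for 13888 genes, 185 of 200 changed genes were recovered and 15 of 200 calls were false. Positions, exons and biotypes came from GENCODE M21 (GRCm38), which holds all 121 members. Shared sequence was measured with blastn 2.17.0 over stretches of at least 75 bases at 98% identity. Promoters came from RefSeq and were matched by symbol.

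Members named by rule were the 12 with the highest NaCl CPM, the 12 with the highest fold, those with all controls at 0, those on a marker list or sharing a symbol root with another member, and the 3 nearest to each threshold inside. Other members, their relatives and neighbours were named as examples of a class after their values were seen. The members and lists were chosen with earlier results of these data known, and the classes, usual sites and relatives were written after the members' values were seen. Alternatives were other scalings, filters, thresholds of the rule, DESeq2 1.42.0, limma-voom (limma 3.58.1) and leaving out each library. The choices to drop shared or overlapping members, and to leave out control replicate 1 and NaCl replicate 5 together, were made after seeing the data. Values of some single genes are not reported here.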

Additional observations from a re-analysis of the deposited data

Results flagged for a closer look

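Within groups of 4 libraries, a value was taken as standing apart when its gap to the nearest other value, over the range of the group, exceeded Dixon's 95% limit for 4 values. Of 78 groups looked at, 6 held such a value, where chance gives about 1 in 20 or 3.9.

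Control replicate 1 had the largest total, 47.57 M counts against 41.77 to 42.73 M in the other controls. NaCl replicate 5 had the smallest, 35.29 M against 41.37 to 42.39 M. Defb1 was at 4.431 CPM in NaCl replicate 8 and between 3.369 and 3.524 CPM in the other NaCl libraries. Rep15 was at 2.133 CPM in NaCl replicate 7 and between 3.153 and 3.263 CPM in the others. The noncoding RNA 1700018A04Rik was at 0.1691 CPM in control replicate 3 and between 0.04729 and 0.06288 CPM in the other controls. Fabp7 was at 0.06288 CPM, 3 counts, in control replicate 1 and at 0 in the others.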

How the results depend on the processing

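The number of members depended on the limits of the rule. It was 121 as stated, 65 with a NaCl mean of at least 40, 184 at 1.5 times the control mean and 40 at 4 times. Leaving out each library in turn gave between 133 and 147 genes, and leaving out control replicate 1 and NaCl replicate 5 together gave 150, of which 108 were among the 121. With at least 10 counts in every library, 173 genes over the whole table were called higher and at least 2-fold instead of 286, since fewer low genes are then tested. The median fold of 2.96 was 3.11 without control replicate 1 and 3.10 without control replicate 2, and ranged between 2.91 and 3.11 over the libraries left out. Without members that share or overlap at least 50% with another gene it was 3.01. The summed ratio stayed between 3.39 and 3.44 under the alternatives run. Of the folds of named members under these alternatives, 338 moved by less than the SD of the replicates and 32 by more, and none of the results computed changed direction. The folds that moved by over 1.5 times without 1 library were those of Abcc6, Avpr2, Cd93 and Npy4r, and, as plain ratios of means, those of Krt4 (14.98) and 1700018A04Rik (13.3) without control replicate 3, where the remaining controls have at most 3 counts and the folds are lower bounds. Plb1, 4930511M06Rik and Fabp7, whose folds are lower bounds with all libraries, were not looked at as plain ratios. Folds of members with controls of a few counts are limited by counting error. No paired analysis was possible because the groups share no replicate numbers (1 to 4 and 5 to 8).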
